A study of Mus musculus with 3 samples.

Results

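Mural cells, the pericytes and vascular smooth muscle cells that wrap the outside of blood vessels, were followed here in 3 single-cell RNA libraries made from sorted blood endothelium of mouse Peyer's patches (PP), the lymphoid follicles of the small intestine. They were chosen by their transcripts among cells with at least 500 genes, at least 1000 unique molecular identifiers (UMIs, one per captured transcript) and at most 10% mitochondrial UMIs. A mural cell held at least 8 UMIs of Notch3, Rgs5, Myh11, Ndufa4l2 and Acta2 together, at least 3 of them from genes other than Acta2. This sum also had to exceed the UMIs of 5 endothelial genes (Pecam1, Cdh5, Egfl7, Emcn and Flt1) and the UMIs of 5 fibroblast genes (Col1a1, Col1a2, Dcn, Pdgfra and Lum). Of 11466 cells that passed the quality limits, 400 were mural cells.

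One library came from control mice, labelled WT and C57BL/6, and 2 came from EC-iCOUPOE mice (CDH5(PAC)CreERT2;COUP-TFIIOE/OE), all aged 6 to 10 weeks. In EC-iCOUPOE mice an allele that overexpresses COUP-TFII, the product of Nr2f2, is switched on by a tamoxifen-inducible Cre under the endothelial Cdh5 promoter. Mural cells are therefore neighbours of the targeted cells and not the intended target, and cells were isolated 14 to 19 days after tamoxifen. Reads of the transgene and of endogenous Nr2f2 are counted under one gene name and cannot be told apart. The number of mice and the day of each library are not given in the sources used here, male and female mice were processed together, and the sort was for endothelial cells, so the mural cells are those that came through a sort not aimed at them.

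Pericytes sit within the basement membrane of capillaries and venules and depend on endothelial PDGF-B acting on PDGFRB, while smooth muscle cells encircle larger vessels and contract through smooth muscle actin and myosin. Notch3, activated by endothelial Jagged1, maintains the mural state, and serum response factor with its partner myocardin switches on contractile genes by binding CArG boxes in their promoters. Along the vessel tree the types grade into each other, and Myh11, the smooth muscle myosin heavy chain, is a marker of the muscle end.

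The promoter windows of Acta2 and Myl9, contractile genes that were higher in mural cells with more Myh11, are shown next to that of Vtn, a pericyte gene that was lower in them. Capitals mark CArG boxes, counted with at most 1 G or C among the inner 6 bases, a form that reads the same on both strands. Each window is the 250 bases before the RefSeq start site in GRCm38.p6, with Acta2 at chr19:34255374-34255623 on the minus strand, Myl9 at chr2:156775214-156775463 on the plus strand and Vtn at chr11:78498870-78499119 on the plus strand.
Acta2: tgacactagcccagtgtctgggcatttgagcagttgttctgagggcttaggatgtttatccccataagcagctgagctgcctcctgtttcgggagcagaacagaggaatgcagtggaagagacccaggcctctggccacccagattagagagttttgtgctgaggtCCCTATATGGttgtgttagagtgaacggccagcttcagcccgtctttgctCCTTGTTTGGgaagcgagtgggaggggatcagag
Myl9: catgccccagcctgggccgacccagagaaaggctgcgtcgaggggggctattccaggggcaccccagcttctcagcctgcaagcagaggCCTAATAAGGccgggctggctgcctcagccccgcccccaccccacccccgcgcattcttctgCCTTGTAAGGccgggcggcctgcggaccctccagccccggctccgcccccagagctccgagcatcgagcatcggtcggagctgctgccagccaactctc
Vtn: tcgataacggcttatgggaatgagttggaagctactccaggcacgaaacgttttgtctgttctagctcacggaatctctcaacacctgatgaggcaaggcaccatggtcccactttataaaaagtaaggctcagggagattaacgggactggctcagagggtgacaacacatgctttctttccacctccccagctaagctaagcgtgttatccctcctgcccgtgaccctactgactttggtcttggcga

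The Acta2 window held 2 such boxes, beginning 84 and 34 bases before the start site, and the Myl9 window held 2, beginning 161 and 99 bases before it. No box of this form lay in the Vtn window. Of 32851 promoter windows of this length in the RefSeq table, 8.59% held such a box and 1.47% held the strict form with no G or C inside. Among the 20 contractile genes outside the rule with a window, 3 held a box (Myl6, Myl9 and Srf), and among 11 pericyte genes with a window, 0 did. These matches describe letters in a window and not binding.

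The 3 libraries differed in depth and in what surrounded the mural cells. The control library held 17341398 UMIs in 6080 barcodes, EC-iCOUPOE replicate 1 held 17417260 in 4959, and EC-iCOUPOE replicate 2 held 3548983 in 1441. Mural cells numbered 113 of 5473 cells in the control library, or 2.06% (exact Clopper-Pearson 95% interval 1.70 to 2.48%). They numbered 197 of 4750 in replicate 1, or 4.15% (3.60 to 4.75%), and 90 of 1243 in replicate 2, or 7.24% (5.86 to 8.83%).

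The mural share was thus lowest in the control library. It is a share of all cells that passed, so it also depends on the number of other cells, and the part of the sort was not tested. Endothelial cells chosen by the same kind of sum numbered 1627, 3458 and 635. Set against those, mural cells were fewest in replicate 1. The control library also held 2612 cells chosen as fibroblasts by the same kind of sum, against 13 and 4 in the EC-iCOUPOE libraries. A further 318 control cells reached the mural sum and were left out because their fibroblast UMIs were as many or more, while 0 cells of either EC-iCOUPOE library were left out that way. Endothelial UMIs kept out 17, 24 and 1 cells of the control library, replicate 1 and replicate 2.

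Mural cells held a median of 2722 UMIs in the control library, 4162 in replicate 1 and 3143 in replicate 2. Summed over mural cells this gave 371463, 893529 and 291374 UMIs, so that 1 UMI stood for 2.69, 1.12 and 3.43 CPM (UMIs per 1000000 UMIs of the summed cells of a library). Levels below are CPM of mural cells, given in the order control, replicate 1, replicate 2, and intervals cover counting error only. With 1 control library there is no test of EC-iCOUPOE against control, and n = 2 throughout for the SD of EC-iCOUPOE ratios.

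Few cells lay near the threshold of the rule. Cells with a 5-gene sum of 8 or 9, just inside, numbered 5, 2 and 3, and cells with a sum of 6 or 7, just outside, numbered 0, 1 and 0. The median sum was 25, 38 and 41.5 UMIs. No mural barcode was shared between libraries, although 12 barcodes of other cells occurred in both the control library and replicate 2.

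Acta2, the smooth muscle alpha-actin, was the most abundant gene of the rule at 4660, 6900 and 10409 CPM. Rgs5, a G-protein signalling regulator typical of pericytes, stood at 2428, 1534 and 1644. Myh11 stood at 845, 1030 and 1095, Ndufa4l2, a mitochondrial protein of hypoxic and mural cells, at 511, 780 and 988, and the Notch3 receptor at 388, 424 and 477. These values chose the cells and are a description. Rgs5 was highest and the other 4 were lowest in the control library. The order differed in mural cells with 0 UMIs of the endothelial rule genes, with Myh11 at 1854, 1773 and 1092 and Notch3 at 443, 504 and 465.

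Genes outside the rule marked the same cells. The 20 genes that most exceeded both the endothelial and the fibroblast cells in every library were ranked by their smallest log2 ratio with 5 CPM added, and 16 of them were not in the rule. Nrip2, a nuclear receptor interacting protein, led at 382, 323 and 474 CPM, against at most 1.63 in endothelial cells and 1.78 in control fibroblasts. Pln, phospholamban, the inhibitor of the calcium pump of the sarcoplasmic reticulum, stood at 234, 419 and 858. Tesc, tescalcin, a calcium-binding protein, stood at 197, 207 and 178, and Lmod1, leiomodin, which nucleates actin filaments in smooth muscle, at 291, 196 and 350.

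The rest of that set were Gm13861, Actg2, Cox4i2, Inpp4b, Rbpms2, Bdnf, Rasl12, Rcan2, Myl9, Map3k7cl, Olfr558 and Itga7. Bdnf, a neurotrophin, was measured at 96.9, 90.7 and 247 CPM in mural cells and below 1 in the endothelial cells of each library. Itga7, an integrin chain that the study used with Pdgfrb to remove pericytes from its endothelial analysis, stood at 135, 59.3 and 130.

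Some pericyte genes were well measured and others were nearly absent. Pdgfrb, the receptor through which endothelial PDGF-B recruits pericytes, stood at 210, 250 and 281 CPM, and Vtn, vitronectin, at 183, 210 and 189. Gucy1a1 and Gucy1b1, the subunits of the nitric oxide receptor, stood at 345, 313 and 343 and at 250, 311 and 343. In contrast, Kcnj8 and Abcc9, which together form the potassium channel of many capillary pericytes, gave 3, 6 and 6 UMIs and 4, 6 and 1 UMIs. Anpep gave 3, 5 and 0 UMIs, Steap4 gave 0, 2 and 0, and Tbx18, a mural transcription factor elsewhere, gave 0 in every library, which allows up to 3 UMIs per library.

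Contractile genes were abundant. The 24 contractile genes together took 18871, 21136 and 31715 CPM, against 1895, 2165 and 2306 in endothelial cells. The sum was 37458, 38832 and 32233 in mural cells with 0 endothelial UMIs, so the order of the libraries was not the same and replicate 2 was lowest. Tagln (transgelin), Myl9 (the regulatory light chain of smooth muscle myosin) and Myl6 were the most abundant, and desmin, the intermediate filament protein of muscle, stood at 988, 932 and 1191. The mural cells of these sorts therefore carried both pericyte and contractile transcripts.

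**Figure D1:**
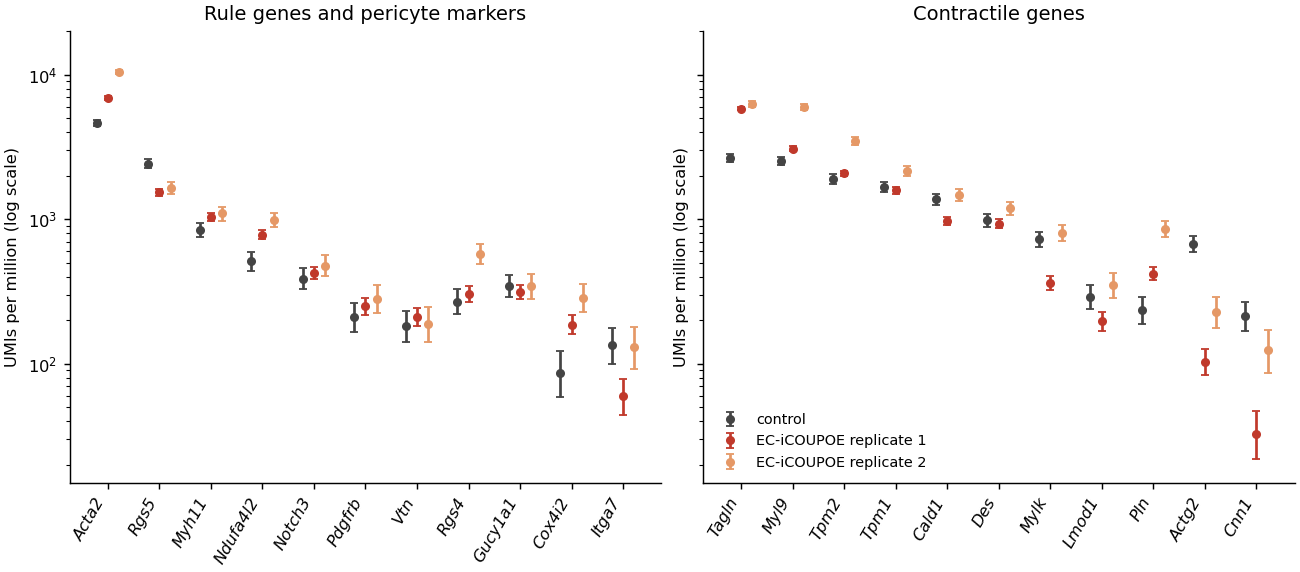
Level of rule genes and pericyte markers (left) and contractile genes (right) in mural cells of the control, EC-iCOUPOE replicate 1 and EC-iCOUPOE replicate 2 libraries, in CPM on a log axis, with exact Poisson 95% intervals as bars. Tagln, Pln and Cox4i2 stood higher and Actg2 lower in both EC-iCOUPOE libraries, while Pdgfrb and Vtn lay close together in the 3 libraries.

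Other cell types were checked with their own marker lists. The 12 leukocyte genes summed to 8.08, 39.2 and 3.43 CPM with Ptprc at 0 in every library, and 7 epithelial genes summed to 0, 3.36 and 3.43. The 7 glial genes summed to 345, 436 and 508, nearly all of it Cryab, a small heat shock protein also made by muscle, with Sox10 at 0. The 5 lymphatic genes summed to 16.2, 207 and 17.2, led by Flt4, Mmrn1 and Mmrn1 in turn, and 12 genes of dividing cells summed to 172, 210 and 264, led by Hmgb2. The 5 erythroid genes summed to 0, 0 and 27.5. The 5 fibroblast genes of the rule summed to 956, 251 and 302, and 12 other fibroblast genes summed to 1077, 304 and 41.2, led by Adamdec1, Fbln2 and Ccl11.

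Endothelial RNA was also present and was lowest in replicate 2. The 5 endothelial genes of the rule summed to 1734, 1730 and 261 CPM in mural cells, led by Egfl7, against 3844, 4352 and 4270 in endothelial cells. Another 15 endothelial genes summed to 6612, 6103 and 1222, led by Ly6c1, Plvap and Esam. Cells with 0 of the 5-gene endothelial UMIs made up 37.2%, 35.0% and 84.4% of mural cells (42, 69 and 76 cells), and cells with 3 or more made up 54.0%, 56.3% and 5.56%.

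Mural cells with 3 or more endothelial UMIs also held more UMIs in all than those with 0. Their medians were 3800, 5498 and 5690, against 1866.5, 2780 and 3139.5. In replicate 2, cells with 1 or 2 endothelial UMIs had a median of 2778, below that of cells with 0. Acta2 in the control library stood at 9942 CPM in cells with 0, 6216 in cells with 1 or 2 and 2827 in cells with 3 or more. The order was the same in replicate 1, at 13671, 10212 and 4316, and in replicate 2, at 10791, 9401 and 8306. The rule set both sums against each other, so this order is a description of the chosen cells. Scrublet marked 3, 1 and 1 mural cells as doublets. Whether the endothelial UMIs came from attached cells was not tested, and the main results below are also given for the mural cells with 0 endothelial UMIs. In that smaller set many genes have too few UMIs for the 2-fold call.

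**Figure D2:**
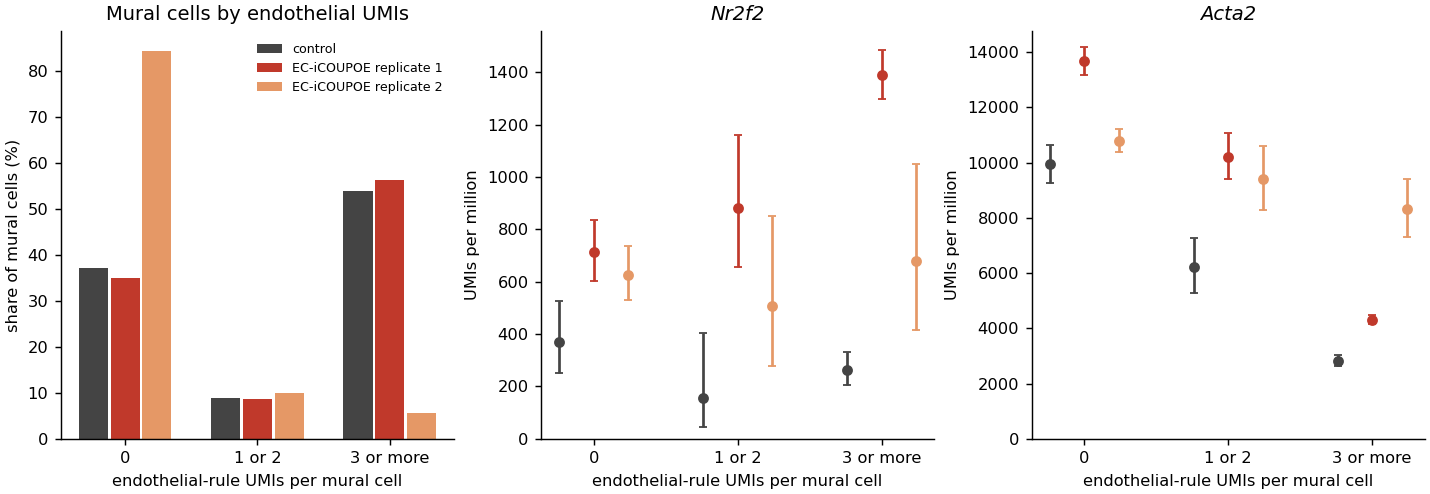
Mural cells grouped by their UMIs of the 5 endothelial rule genes: share of the mural cells of each library (left, bars from 0), and Nr2f2 (middle) and Acta2 (right) in CPM with exact Poisson 95% intervals. In replicate 2, 84.4% of mural cells held 0 endothelial UMIs, and Acta2 was lower in cells with 3 or more endothelial UMIs than in cells with 0 in every library, both being values that chose the cells.

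Mural cells were next ordered from pericyte to contractile cells by Myh11. Cells with 3 or more Myh11 UMIs (Myh11-high) numbered 46, 107 and 44, cells with 1 or 2 (Myh11-low) 42, 60 and 31, and cells with 0 (Myh11-zero) 25, 30 and 15. The Myh11-high share was 40.7% (31.6 to 50.4%), 54.3% (47.1 to 61.4%) and 48.9% (38.2 to 59.7%). The 3 intervals overlap. These classes are ranges of 1 gene and not types, since 19, 32 and 15 cells held 2 Myh11 UMIs and 13, 18 and 12 cells held 3, on either side of the limit.

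Among mural cells with 0 endothelial UMIs the Myh11-high share was 57.1%, 69.6% and 47.4%. After each cell was thinned to 1000 UMIs, 46.9%, 53.3% and 52.2% of mural cells held a Myh11 UMI. Median UMIs of Myh11-high and Myh11-zero cells were 2828.5 and 2822 in the control library, 4101 and 4294 in replicate 1, and 3596 and 2778 in replicate 2.

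Genes were compared between Myh11-high and Myh11-zero cells in the control library and replicate 1, the 2 libraries with at least 20 cells of both classes. Of 1610 genes with at least 50 UMIs in a class, 44 (2.73%) were at least 2-fold higher in Myh11-high cells in both libraries and 9 (0.559%) at least 2-fold lower, 3.29% in all. Of 17 contractile genes tested, 10 were higher and 0 lower, with median log2 ratios of 1.80 in the control library and 1.32 in replicate 1 against 0.04 and -0.02 over all genes tested. Endothelial UMIs moved with the classes, since only 4 of 25 control and 5 of 30 replicate 1 Myh11-zero cells held 0 of them. With those few cells as the Myh11-zero class, 3 contractile genes (Myl9, Tpm2 and Pln) of 15 tested were called higher and 0 lower, and of the 10 genes 9 could be tested. Tagln then had log2 ratios of 1.28 and 0.91, Myl6 1.61 and 0.80, Lmod1 -0.13 and 1.55, Ppp1r14a 2.62 and 0.07, and Ppp1r12b 0.65 and 0.33. Actg2 and Cnn1 gave 0 UMIs in the Myh11-zero cells of both libraries, so their ratios are lower bounds. In replicate 2, with 13 Myh11-zero cells, the log2 ratio of Tagln was 0.93 and that of Myl6 1.05. Of 8 pericyte genes tested, 0 were higher and 1, Vtn, was lower. Since a Myh11-zero cell must reach its sum with the other rule genes, Acta2, Rgs5, Notch3 and Ndufa4l2 are given as a description.

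Pln headed the genes that were higher with Myh11. In the control library it stood at 38.9 CPM in Myh11-zero, 183 in Myh11-low and 368 in Myh11-high cells. In replicate 1 it stood at 46.3, 107 and 677, and in replicate 2, which the choice of genes did not use, at 508, 733 and 1021. The order was thus the same in the 3 libraries, with a smaller span in replicate 2.

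Actg2, the gamma-actin of enteric smooth muscle, stood at 13.0, 175 and 1392 CPM in the 3 classes of the control library in that order. It stood at 0, 15.3 and 175 in replicate 1 and at 48.4, 76.6 and 359 in replicate 2. Most of the control value came from few cells, described below.

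The broadly contractile genes followed the same order with smaller ratios. Myl9 stood at 1063, 1912 and 3698 CPM in the control library, 1241, 1607 and 4314 in replicate 1 and 3170, 4736 and 7363 in replicate 2. Tagln stood at 934, 2239 and 3802, at 2961, 3463 and 7801, and at 4308, 5272 and 7382. Tpm2, a tropomyosin, had log2 ratios of Myh11-high to Myh11-zero cells of 2.13, 1.71 and 1.14. Desmin did not follow, with log2 ratios of 0.27, 0.22 and 0.03, and neither did Cald1, caldesmon, at 0.47, 0.96 and 0.11.

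Of 6 vasoactive receptors and channels tested between the classes 1, P2rx1, was called higher with Myh11, beside 2.73% of all genes tested, and the median log2 ratios of the 6 were -0.35 in the control library and 1.11 in replicate 1. Npy1r, outside that list, was called higher too. Npy1r, the neuropeptide Y receptor of sympathetic vasoconstriction, stood at 13.0, 91.4 and 79.7 CPM in Myh11-zero, Myh11-low and Myh11-high control cells and at 23.1, 65.1 and 131 in replicate 1. In replicate 2 it stood at 194, 120 and 170, so Myh11-zero cells were lowest in the control library and replicate 1 and highest in replicate 2. P2rx1, the ATP-gated channel of the same nerves' cotransmitter, stood at 0, 7.62 and 135 in the control library, 7.71, 11.5 and 125 in replicate 1, and 24.2, 43.7 and 214 in replicate 2. P2rx1 was thus lowest in Myh11-zero and highest in Myh11-high cells of each library.

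The other genes named by rank were Cpe (carboxypeptidase E), Map1b, Palld (palladin), Ckb (brain creatine kinase), Fbxl22, Igfbp5, Mgp, Dstn (destrin) and Ccdc107. In replicate 2 their log2 ratios were 0.90, 0.93, 1.30, 1.50, 0.76, 1.17, 2.58, 0.94 and 1.17 in that order, the one for Mgp against 0 UMIs in the Myh11-zero cells. Of these, Igfbp5, an insulin-like growth factor binding protein, had log2 ratios of 1.84 and 2.14 in the libraries that chose it.

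Vtn was the pericyte gene called lower in Myh11-high cells. It stood at 389, 190 and 79.7 CPM in Myh11-zero, Myh11-low and Myh11-high cells of the control library, at 385, 314 and 111 in replicate 1, and at 387, 295 and 75.7 in replicate 2. The log2 ratios of Myh11-high to Myh11-zero cells were -2.29, -1.79 and -2.36 and, in cells with 0 endothelial UMIs, -3.25, -1.79 and -2.58. The 3 libraries lay close to each other in each outer class.

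Phlda1, an early response gene, went with Vtn, at 973, 937 and 307 CPM in Myh11-zero, Myh11-low and Myh11-high control cells, 933, 566 and 281 in replicate 1 and 1113, 1673 and 460 in replicate 2. Cxcl10, the interferon-induced chemokine, had log2 ratios of -3.08, -2.84 and -3.53, with 1180 CPM in Myh11-zero cells of replicate 1 against 165 in Myh11-high cells. Ifitm1, named after its values were seen, stood at 882, 1118 and 1355 in Myh11-zero cells of the 3 libraries and at 484, 436 and 322 in Myh11-high cells.

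The other 6 lower genes were Marcks, Madcam1, Icam1, Iigp1, Scgb3a1 and Lrg1. Madcam1, the mucosal addressin of endothelium, stood at 1842 CPM in Myh11-zero and 564 in Myh11-high control cells and at 956 and 382 in replicate 1. The endothelial sum moved with it, at 2231 CPM in Myh11-zero and 1398 in Myh11-high control cells and at 1974 and 1403 in replicate 1. In replicate 2, where that sum was 48.4 and 397, Madcam1 stood at 72.6 and 69.3. The part of endothelial RNA in these 6 genes was not tested.

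Pericyte genes other than Vtn did not separate the classes at 2-fold. Pdgfrb stood at 311, 254 and 339 CPM in Myh11-zero cells of the 3 libraries and at 147, 247 and 265 in Myh11-high cells. Rgs5 stood at 3048, 1704 and 2880 in Myh11-zero and at 1821, 1331 and 971 in Myh11-high cells, lower in the latter in each library. In cells with 0 endothelial UMIs, where the Myh11-zero class held 4 and 5 cells and fell short of the minimum of 20, 14 genes were called higher and 9 lower among 462 tested, and 7 and 0 of these were among the 44 and 9. Vtn had too few UMIs there to be tested, and its ratios are those given above.

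**Figure D3:**
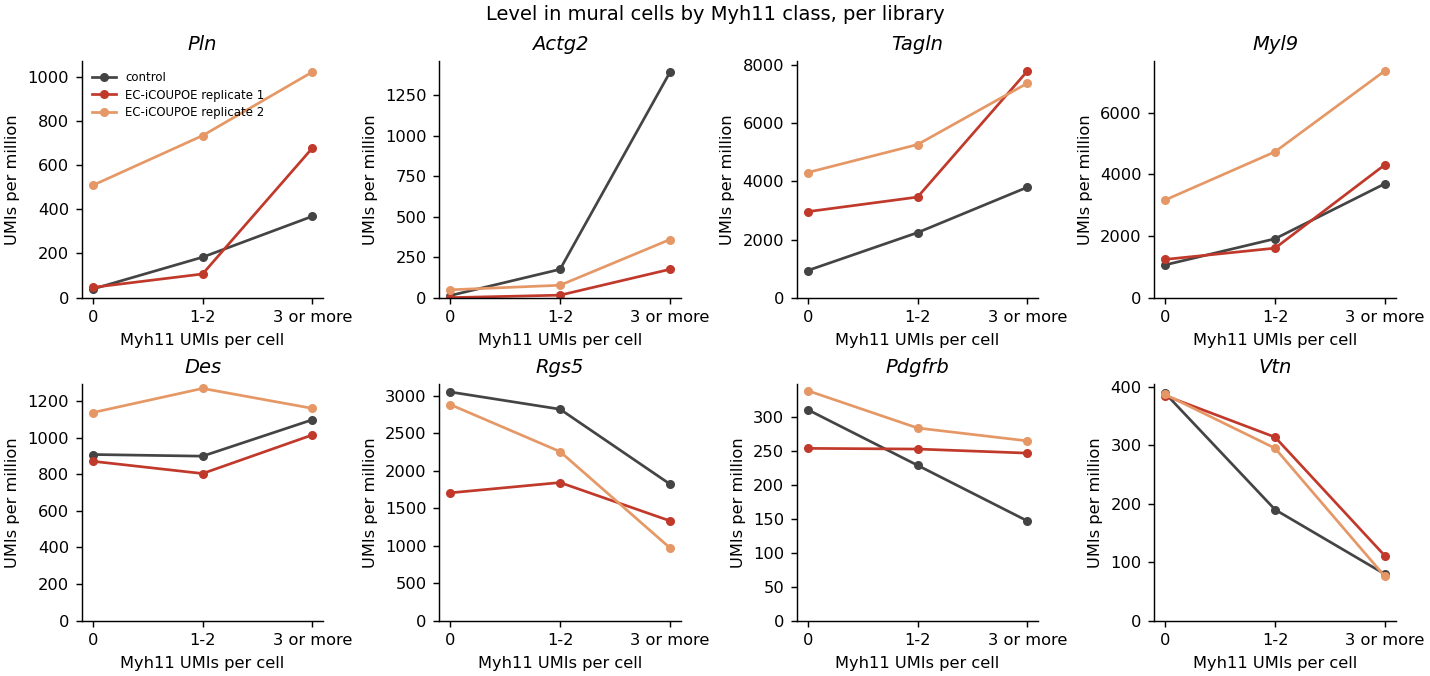
CPM of 8 genes in mural cells with 0, 1 or 2, and 3 or more Myh11 UMIs, with 1 line per library and axes from 0. Pln, Actg2, Tagln and Myl9 were highest and Vtn lowest in cells with 3 or more Myh11 UMIs in the 3 libraries, while desmin changed little.

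A small set of control cells stood apart within the contractile end. Hhip, a hedgehog-binding membrane protein, gave 64 UMIs and Actc1, the cardiac alpha-actin, gave 55 UMIs in control mural cells, and both gave 0 in either EC-iCOUPOE library. They lay in 12 cells of 113, of which 8 held both genes and 11 were Myh11-high. These 12 cells, chosen after their values were seen, held 70.1% of the Actg2 UMIs and 89.9% of the Cnn1 (calponin) UMIs of control mural cells.

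In these 12 cells Actg2 stood at 4881 CPM against 224 in the other control mural cells, and Cnn1 at 1969 against 23.9. Rgs5 and Notch3 went the other way, at 527 against 2633 and at 55.5 against 423, and Myh11 stood at 2246 against 695. All 12 held 3 or more fibroblast UMIs of the rule, and 70.3% of the UMIs of Adamdec1, a protease-like gene of gut stroma, lay in them. Rgs5, Notch3 and Myh11 are genes of the rule, so these values describe the 12 cells.

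EC-iCOUPOE and control mural cells were then compared, a comparison that asks whether forced COUP-TFII in endothelium goes with a change in the cells around it. Of 2879 genes with at least 50 UMIs in a library, 78 (2.71%) were at least 2-fold higher in both EC-iCOUPOE libraries and 44 (1.53%) at least 2-fold lower, 4.24% in all. The median log2 ratio over all genes tested was 0.07 in replicate 1 and -0.09 in replicate 2. In cells with 0 endothelial UMIs the counts were 28 and 13 of 781 genes tested, of which 18 and 5 were among the 78 and 44.

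**Figure D4:**
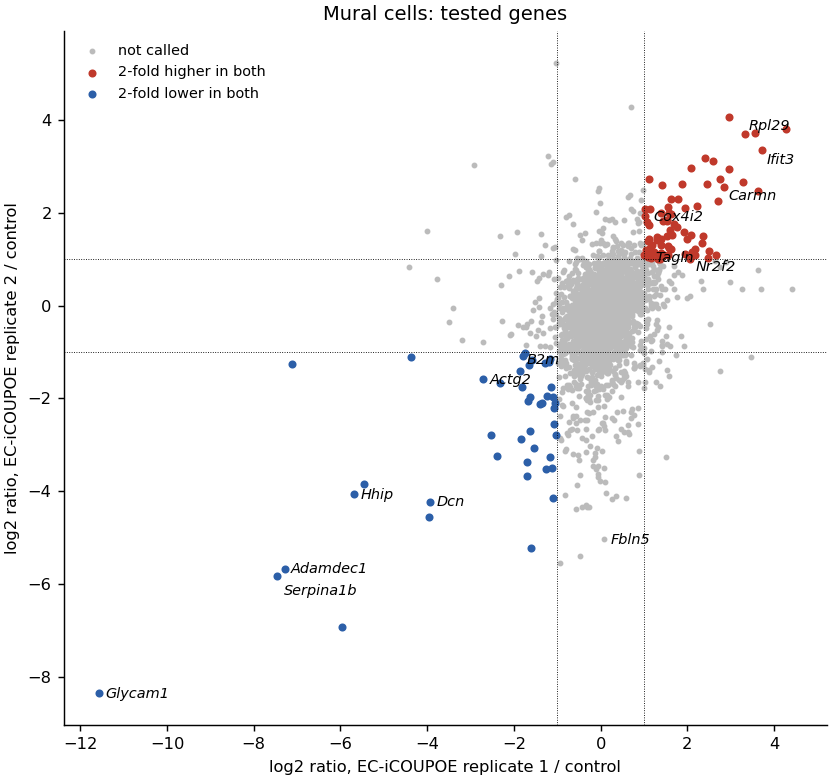
Log2 ratio of CPM in mural cells of each EC-iCOUPOE library to the control library for the 2879 genes tested, with replicate 1 on the horizontal and replicate 2 on the vertical axis and dotted lines at 2-fold. The 78 genes called higher lie in the upper right and the 44 called lower in the lower left, and a group of genes near 0 in replicate 1 was lower in replicate 2, among them Fbln5. Ratios of genes with 0 UMIs in a library are drawn at the value for 3 UMIs.

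Nr2f2 itself was higher in EC-iCOUPOE mural cells. It stood at 280, 1197 and 621 CPM, which is 104, 1070 and 181 UMIs in 60, 178 and 67 cells. The ratio to control was 4.28-fold in replicate 1 and 2.22-fold in replicate 2, or 1.62 ± 0.67 on the log2 scale (SD, n = 2). Where mural UMIs were at least 3 times the endothelial and the fibroblast sums, the mean log2 ratio was 1.10 and Nr2f2 was not called. Endothelial cells held 126, 1629 and 1119, so the control mural cells had more than the control endothelial cells and the EC-iCOUPOE mural cells had less than the EC-iCOUPOE endothelial cells. Nr2f2 lies at chr7:70351944-70366735 on the minus strand of GRCm38.

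In mural cells with 0 endothelial UMIs, Nr2f2 stood at 371 CPM (exact Poisson 95% interval 252 to 526) in the control library, 713 (604 to 837) in replicate 1 and 627 (530 to 737) in replicate 2. The intervals of both EC-iCOUPOE libraries lay above that of the control library, and the log2 ratios were 0.94 and 0.76, both under 2-fold. In replicate 1, cells with 3 or more endothelial UMIs stood higher, at 1390 (1299 to 1485), whereas in the control library they stood at 263 (205 to 333).

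After thinning to 1000 UMIs, 30.1%, 62.4% and 47.8% of mural cells held a Nr2f2 UMI, and 31.0%, 53.6% and 46.1% of those with 0 endothelial UMIs. Unthinned, the shares were 53.1%, 90.4% and 74.4% of all mural cells. Among cells with leukocyte markers, which should lack the gene and serve as background, 0 of 13 control cells, 5 of 28 replicate 1 cells and 1 of 4 replicate 2 cells held one after thinning, at median depths of 1597, 4013.5 and 4850.5 UMIs before it. Their summed level was 0, 429 and 33.8 CPM. Fibroblasts gave 5.25% of 2612 cells in the control library, 61.5% of 13 cells at 1142 CPM in replicate 1 and 0 of 4 cells in replicate 2. The replicate 1 leukocytes held more endothelial RNA than the replicate 1 mural cells with 0 endothelial UMIs, with Plvap at 350 against 90.3 CPM and Madcam1 at 166 against 9.51. Those mural cells were chosen for 0 UMIs of 5 endothelial genes and the leukocytes were not. The sets thus differ in this by choice and are not a matched comparison. In replicate 2, 4 cells are too few to give a background. The part of RNA of other cells in the Nr2f2 level of mural cells was not tested.

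Other regulators in the study and the addressin Madcam1 were also measured. Nkx2-3, the intestinal homeodomain factor that is the partner of COUP-TFII, stood at 482, 312 and 251 CPM in mural cells and at 658, 200 and 239 in those with 0 endothelial UMIs, where the log2 ratios were -1.72 and -1.46. Hey1, the Notch-induced repressor, stood at 143, 49.2 and 17.2 and was the 1 gene called, as lower, among 6 Notch genes tested, beside 1.53% of all genes tested. It stood at 59.8, 9.51 and 8.53 in cells with 0 endothelial UMIs, on 5, 2 and 2 UMIs, too few for a call. The mean log2 ratio of Hey1 was -2.30 in all mural cells and -1.06, not called, with the ratio in endothelial cells subtracted. Hey1 was also not called after thinning (-1.56) or where mural UMIs were at least 3 times the other sums (-1.90). Nor was it called within Myh11-high (-1.54) or Myh11-zero cells (-1.65). Madcam1 stood at 1050, 590 and 61.8 and gave 2, 2 and 15 UMIs in cells with 0 endothelial UMIs, and Nr2f1 gave 8, 13 and 0 UMIs.

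Among 9 pericyte genes tested, 2 were higher and 0 lower, beside 2.71% and 1.53% of all genes tested, with median log2 ratios of 0.20 and 0.42 against 0.07 and -0.09. Cox4i2, an isoform of a cytochrome c oxidase subunit used in oxygen sensing, stood at 86.1, 186 and 285 CPM, which is 2.16-fold and 3.31-fold the control value. Mcam, the adhesion molecule CD146 of pericytes and endothelium, stood at 102, 238 and 227, or 2.33-fold and 2.21-fold. In cells with 0 endothelial UMIs Cox4i2 stood at 108, 318 and 294, on 9, 67 and 69 UMIs. Mcam stood there at 71.8, 299 and 205, on 6, 63 and 48 UMIs. Both differences were thus larger than 2-fold there too, but on few control UMIs. Cox4i2 was not called without the 12 control cells with Hhip or Actc1, at a mean log2 ratio of 1.27, and where mural UMIs were at least 3 times the other sums neither gene was called, at 1.11 for Cox4i2 and 1.07 for Mcam. The mean log2 ratio of Mcam was 0.58 after thinning to 1000 UMIs and 0.12 with the ratio in endothelial cells subtracted. That of Cox4i2 was 0.55 in Myh11-zero cells and -0.83 with the endothelial ratio subtracted, and neither gene was called in these settings. Pdgfrb, Vtn, Gucy1a1 and Ebf1 had log2 ratios between -0.20 and 0.42.

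Among 17 contractile genes tested, 1 (Tagln) was higher and 1 (Actg2) lower, with median log2 ratios of -0.08 and 0.27. Tagln stood at 2654, 5830 and 6284 CPM, 2.20-fold and 2.37-fold the control value. In cells with 0 endothelial UMIs it stood at 5312, 11694 and 6381, and the log2 ratios were 1.14 and 0.26, so the difference passed 2-fold in replicate 1 only. Tagln was also not called after thinning (mean log2 ratio 1.01) or within Myh11-high cells (1.00). Nor was it called where mural UMIs were at least 3 times the other sums (0.92) or with the endothelial ratio subtracted (0.61). Within Myh11-zero cells it was called higher (1.94).

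Actg2 stood at 676, 103 and 227 CPM, with log2 ratios of -2.71 and -1.58. Without the 12 control cells with Hhip or Actc1 its control level was 224, close to replicate 2 at 227 and above replicate 1 at 103. Pln was higher in both EC-iCOUPOE libraries, at 234, 419 and 858, with a ratio in replicate 1 short of 2-fold at 0.84 on the log2 scale. Pln stood at 491, 775 and 891 in cells with 0 endothelial UMIs, under 2-fold in both. Myl9, Tpm2, Flna and desmin were within 2-fold in replicate 1 and between 0.27 and 1.24 on the log2 scale in replicate 2. The replicate 2 log2 ratios in cells with 0 endothelial UMIs were 0.18 for Myl9, -0.40 for Tpm2, -0.11 for Flna and -0.50 for desmin, so the last 3 changed sign.

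**Figure D5:**
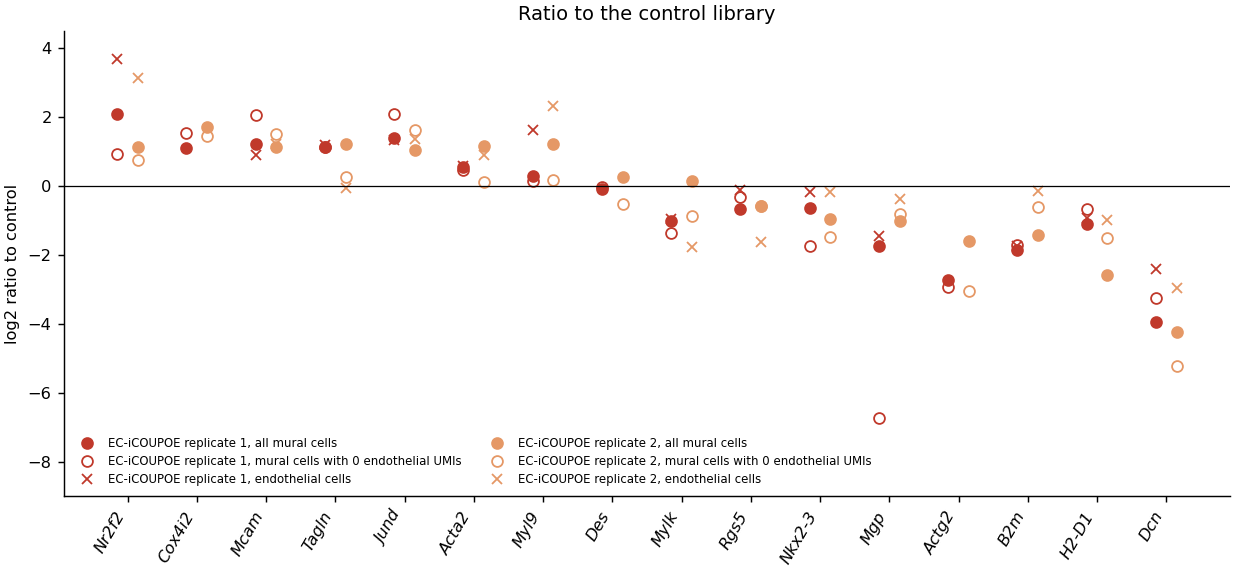
Log2 ratio to the control library for 16 genes in all mural cells (filled circles), in mural cells with 0 endothelial UMIs (open circles) and, where control endothelial cells held at least 50 UMIs, in endothelial cells (crosses). Cox4i2, Mcam and Jund were more than 2-fold higher with all mural cells and with 0 endothelial UMIs, while Nr2f2 was above 2-fold in all mural cells and between 0.76 and 0.94 in those with 0 endothelial UMIs.

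The 10 higher genes with the largest ratios were Ftl1-ps1, Pttg1, Ifit3, Rpl29, AY036118, Eno1, Hmgn2, Chmp1a, Erh and Carmn. With the ratio in endothelial cells subtracted, mean log2 ratios were -0.86 for Ftl1-ps1, 0.26 for Pttg1, 0.58 for Ifit3 and 0.26 for Rpl29. They were 0.49 for AY036118, 0.59 for Eno1, 0.61 for Hmgn2 and -0.48 for Erh, and none of these genes was called. Chmp1a, at 1.67, was still called higher, and Carmn was not called. In mural cells with 0 endothelial UMIs, Ftl1-ps1, Rpl29 and AY036118 were called higher and the other 7 had fewer than 50 UMIs in every library. Eno1 gave 0, 14 and 16 UMIs there and Chmp1a 0, 13 and 10. Rpl29, a ribosomal protein, stood at 86.1, 863 and 1119 CPM in mural cells and at 140, 1204 and 1462 in endothelial cells. Ftl1-ps1, a ferritin light chain pseudogene, stood at 32.3, 626 and 456 in mural and at 27.1, 784 and 849 in endothelial cells.

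Ftl1, the parent gene of that pseudogene, went the other way, at 1464, 293 and 463 CPM in mural cells and 1605, 328 and 981 in endothelial cells. Reads of near-identical copies can be split between such a pair, so both values are uncertain, and the same holds for Rpl29, Eno1, Hmgn2 and Erh, which have processed copies. Ifit3, an interferon-induced gene, stood at 5.38, 71.6 and 54.9 in mural and at 17.0, 167 and 105 in endothelial cells.

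Carmn, the smooth muscle long non-coding RNA that hosts miR-143 and miR-145, was nearly absent from endothelial cells. It gave 3, 52 and 14 UMIs in 2, 38 and 12 mural cells, or 8.08, 58.2 and 48.0 CPM, with log2 ratios of 2.85 (95% counting interval 1.22 to 5.17) and 2.57 (0.73 to 5.01). It gave at most 0.434 CPM in the endothelial cells of any library. In mural cells with 0 endothelial UMIs it gave 0, 22 and 12 UMIs, and with the control count read as up to 3 UMIs the log2 ratios were at least 1.54 and at least 0.51, so the difference was not called there. It gave 0, 37 and 5 UMIs in Myh11-high and 2, 3 and 3 UMIs in Myh11-zero cells, too few for a call within the classes.

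Other genes called higher that stood below their mural level in endothelial cells were looked up after their values were seen. Sbspon stood at 24.2, 83.9 and 120 CPM, Ntn4, a netrin of basement membranes, at 10.8, 70.5 and 51.5, and Lox, which crosslinks collagen and elastin, at 32.3, 99.6 and 75.5. In endothelial cells Sbspon and Ntn4 reached at most 1.13 and 3.04 CPM, and Lox stood at 1.48, 13.5 and 21.0. In mural cells with 0 endothelial UMIs the log2 ratios were 0.56 and 0.56 for Sbspon, 2.06 and 0.97 for Ntn4, and 0.92 and 0.42 for Lox, each on fewer than 50 UMIs.

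Serpine2, a protease inhibitor, stood at 32.3, 137 and 254 CPM, and Bmp2 at 37.7, 111 and 165. Lgals1, galectin-1, stood at 552, 1150 and 1936. Bmp2 stood at 1.18, 26.3 and 65.1 in endothelial cells, so with the endothelial ratio subtracted Bmp2 and Lox were called lower. Serpine2 was called higher in mural cells with 0 endothelial UMIs, at log2 ratios of 1.02 and 1.25, whereas Bmp2 there gave 0.05 and 1.44 and Lgals1 0.61 and 0.64.

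The 10 lower genes with the largest ratios were Glycam1, Scgb3a1, Serpina1b, Adamdec1, Hhip, Ubd, Dcn, Actc1, Meg3 and Igfbp3. Glycam1, the mucin-like ligand made by high endothelial cells, stood at 3392, 1.12 and 0 CPM in mural cells and at 36371, 914 and 7.36 in endothelial cells. In control mural cells with 0 endothelial UMIs it stood at 144, against 4740 in those with 3 or more. Serpina1b stood at 590, 0 and 0 in mural and at 2352, 40.0 and 4.53 in endothelial cells, and Scgb3a1 and Ubd were likewise most abundant in control endothelial cells. The mean log2 ratio of Ubd was -4.25 in all mural cells and -1.43, not called, in Myh11-zero cells. Where mural UMIs were at least 3 times the other sums it was -0.09 and not called. In that setting Glycam1 (-4.04) and Scgb3a1 (-6.07) were not called either, while Serpina1b (-5.82) was still called lower.

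Dcn (decorin), Adamdec1 and Meg3 were instead genes of the control fibroblasts, at 15379, 3474 and 654 CPM there. Dcn stood at 514, 33.6 and 27.5 and Adamdec1 at 525, 0 and 0 in mural cells, the latter at least 156-fold and at least 51.0-fold lower if 0 UMIs is read as the 3 that a count of 0 allows per library. Without the 12 control cells with Hhip or Actc1 the mean log2 ratio was -4.88 for Adamdec1, against -6.48 with them, and -2.53 for Dcn, against -4.08, and both were still called lower. Adamdec1 stood at 173 in the other control mural cells. Meg3 stood at -2.48 without the 12 cells, against -2.66, and was not called. The part of fibroblast RNA in these ratios was not tested, and the lower call of Hhip and Actc1 rests on those 12 cells.

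B2m, the light chain of class I antigen-presenting molecules, stood at 3333, 927 and 1253 CPM and H2-D1, a class I heavy chain, at 3096, 1468 and 525. Another class I gene, H2-Q4, went the other way, at 32.3, 82.8 and 65.2, and is named after its values were seen. B2m and H2-D1 were the 2 genes called lower among 17 interferon-related genes tested, of which 1 (Ifit3) was higher, beside 1.53% lower and 2.71% higher of all genes tested, and whose median log2 ratios were 0.41 and -1.27. In endothelial cells B2m stood at 7894, 2393 and 7133 and H2-D1 at 5496, 2932 and 2803. In mural cells with 0 endothelial UMIs the log2 ratios of B2m were -1.71 and -0.59, and those of H2-D1 were -0.66 and -1.49, so neither passed 2-fold in both. Isg15, an interferon-induced ubiquitin-like protein, stood at 35.9, 261 and 597 in those cells, on 3, 55 and 140 UMIs, and was called higher there. Ifi27l2a, named after its values were seen, was called lower there, at 1340, 504 and 205. Neither Isg15 nor Ifi27l2a was called in all mural cells.

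The other lists held 0 to 2 called genes each, beside 2.71% higher and 1.53% lower of all genes tested, and with 7 to 17 genes a list these counts are too small to set a list apart from that share. Of 12 paracrine genes tested 1, Cxcl12, was lower, at 312, 143 and 27.5 CPM against 388, 114 and 288 in endothelial cells. Mural cells with 0 endothelial UMIs held 21, 15 and 5 UMIs of Cxcl12, too few for a call. Of 7 vasoactive receptors and channels tested 0 were called, with Ednra, the endothelin receptor, at 80.8, 120 and 137 and Pde3a, a cyclic nucleotide phosphodiesterase, at 188, 248 and 398. Of 9 basement membrane genes tested 0 were called, Sparc being the most abundant at 1685, 1982 and 1997.

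Of 11 other matrix genes tested, Tnc (tenascin C) was higher at 24.2, 71.6 and 51.5 CPM and Mgp (matrix Gla protein) lower at 482, 144 and 237. Of 8 lymphoid stroma genes tested, 1, Enpp2 (autotaxin), was lower at 232, 73.9 and 96.1. None of Tnc, Mgp and Enpp2 was called in cells with 0 endothelial UMIs, where Mgp stood at 502, 4.75 and 290, under 2-fold in replicate 2, and Tnc gave 4, 21 and 12 and Enpp2 17, 19 and 21 UMIs, too few for a call. Of 14 transcription factors tested, Nr2f2 alone was called, and Tbx2, Foxs1 and Zfhx3 stood within 2-fold. In cells with 0 endothelial UMIs Nr2f2 was not called, and Nkx2-3, of the same list, was called lower. It stood there at 658, 200 and 239, on 55, 42 and 56 UMIs. Of 17 immediate early genes tested, 1, Jund, was higher at 921, 2415 and 1894. Fos, the most abundant of them, stood at 6741, 6406 and 6195. In cells with 0 endothelial UMIs Ier3, of the same list, was also called higher, at 120, 328 and 371, as were Cebpb at 825, 1659 and 2790 and Gadd45g at 550, 1669 and 2192, which are outside the list and named after their values were seen.

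Some genes were lower in replicate 2 than in the other libraries. Fbln5 (fibulin 5) gave 126, 321 and 0 UMIs, although endothelial cells of replicate 2 held 214 CPM. In mural cells with 3 or more endothelial UMIs it stood at 427 in the control library and 499 in replicate 1, against 132 and 14.3 in those with 0. In replicate 2 it gave 0 UMIs in each of these sets, which for cells with 3 or more endothelial UMIs allows up to 126 CPM (exact Poisson 95% limit) and for cells with 0 up to 15.7. Among cells with 0 endothelial UMIs both EC-iCOUPOE libraries thus lay below the control library, whose interval was 65.7 to 235. Pecam1 stood at 450, 332 and 61.8 and Plvap at 1020, 1578 and 154. Pecam1 is a gene of the endothelial sum, which was lowest in replicate 2, and Plvap stood at 1055 in the 5 replicate 2 cells with 3 or more endothelial UMIs.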

How the data were processed

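Cells sorted as Peyer's patch blood endothelium were profiled with 10x Genomics 3' chemistry in 3 libraries, 1 control and 2 EC-iCOUPOE. The deposited values are raw UMI counts per gene and cell, made by the authors with Cell Ranger against mm10 and not normalized. The labels name Cell Ranger 3.0.2, and the file header of EC-iCOUPOE replicate 1 names 3.1.0.

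Mural cells were chosen by the UMI sums described, with at least 500 genes, 1000 UMIs and at most 10% mitochondrial UMIs. Scrublet doublets, called in scanpy 1.11.5 at an expected 6%, were kept and left out in an alternative. Counts were summed over mural cells per library and divided by their total (CPM). A gene was called when at least 2-fold apart in the same direction in both EC-iCOUPOE libraries, or in both libraries used for the Myh11 classes, with at least 50 UMIs in 1 library or class. With 1 control library no test was made. Intervals are exact Poisson, Clopper-Pearson or conditional binomial 95% intervals for counting error, and a count of 0 was read as up to 3 UMIs. The calling step was checked on simulated data, and no value from that check is given here.

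Named genes were the 10 with the largest smaller ratio in each direction, the 15 per direction between classes, the 20 leading identity genes and called members of the lists. The cells and lists were chosen with earlier results of these data known. Alternatives changed the UMI minimum, scaling (TMM, edgeR 4.0.16 in R 4.3.3), thinning to 1000 UMIs, doublets, the choice of cells and the libraries. Those using endothelial UMIs, endothelial ratios and the Hhip or Actc1 cells were chosen after seeing the data. Sums and intervals were computed in Python 3.11.15 with scipy 1.17.1, pandas 2.3.3 and numpy 2.4.6. Promoter windows were taken from a RefSeq table of GRCm38.p6. A withheld result is not reported here.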

Additional observations from a re-analysis of the deposited data

Results flagged for a closer look

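Among named or listed genes, 77 reached 50 UMIs within each class in some library, and for 7 of these both EC-iCOUPOE libraries lay on one side of the control library in Myh11-high cells and on the other side in Myh11-zero cells. The difference between the classes was not tested, and the Myh11-zero class of replicate 2 held 15 cells. All genes tested in both classes numbered 399, and how many of them lay on opposite sides is not given. The 7 are therefore not set apart from genes in general. Values are mean log2 ratios to control over the 2 EC-iCOUPOE libraries. Notch3, the receptor that maintains mural cells, stood at 0.30 in Myh11-high and -0.22 in Myh11-zero cells, and it is a gene of the rule. Ebf1, a pericyte transcription factor, stood at 0.37 and -0.33. Col4a1, a basement membrane collagen, stood at -0.24 and 1.04. Bgn, the matrix proteoglycan biglycan, stood at -0.25 and 1.73, with 1.79 and 1.67 in the Myh11-zero cells of replicates 1 and 2. Klf2, a flow-responsive factor, stood at 0.55 and -0.71, Fos at 0.13 and -0.44, and Ifitm1 at -0.37 and 0.48.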

How the results depend on the processing

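Of 78 genes higher and 44 lower in EC-iCOUPOE mural cells, the counts became 195 and 149 with a minimum of 20 UMIs, 22 and 9 with 200, 20 and 13 after thinning to 1000 UMIs, and 50 and 16 where mural UMIs were at least 3 times the other sums. They were 21 and 14 in Myh11-zero cells, 28 lower genes in Myh11-high cells, 28 and 13 in cells with 0 endothelial UMIs, 35 and 87 after subtracting the endothelial log2 ratio, and 100 and 37 with TMM scaling. Of the 35 and 87 genes called after that subtraction, only 9 and 10 were among the 78 and 44. Without one EC-iCOUPOE library they ranged from 109 to 210 higher and from 102 to 193 lower, the 210 and 102 without replicate 2 and the 109 and 193 without replicate 1. Of 44 genes higher and 9 lower with Myh11, the counts became 99 and 17 with a minimum of 20 UMIs and 15 and 2 after thinning, and 14 higher in cells with 0 endothelial UMIs. Without one library they ranged from 46 to 94 higher and from 9 to 24 lower, the 94 and 24 without the control library. Fewer genes passed the UMI minimum in the smaller sets of cells, and other causes were not tested.

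The control mural cells numbered 75 under the 3-fold rule. The Myh11-high share was 57.1% in control and 69.6% in replicate 1 cells with 0 endothelial UMIs, and 68.4% in replicate 1 under the 3-fold rule. After subtracting the endothelial ratio, mean log2 ratios reversed for Ftl1-ps1 (-0.86), Erh (-0.48), Serpina1b (0.80), Ubd (0.03), Nr2f2 (-1.80) and Cox4i2 (-0.83). Nr2f2 is the gene overexpressed in endothelium by design, at 126, 1629 and 1119 CPM in endothelial cells. Its subtracted value therefore cannot show whether its level changed in mural cells. For Cox4i2 the endothelial level was at most 1.74 CPM. In Myh11-zero cells the mean for Dcn was 0.66 and not called. It rested on 8, 18 and 8 UMIs in the control library, replicate 1 and replicate 2, too few to show a reversal. The value of Actg2 there (1.90) was that of replicate 2 alone. Actg2 gave 1, 0 and 2 UMIs in Myh11-zero cells of the control library, replicate 1 and replicate 2. Replicate 1 was thus not above the control library, and these UMIs are too few to show a reversal. No paired analysis was possible because the control library carries no replicate number and is a single library. Replicate 2 had the fewest UMIs in mural cells, 291374, which limits its low genes most.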
